A study of Mus musculus with 15 samples.

Results

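The contrast described here sets the 4 18-month libraries labelled placebo against the 4 18-month libraries labelled doxycycline, 8 of the 15 RNA-seq libraries of the study. Members were taken from the titles and treatment labels alone. Each library came from the frozen hemisphere of 1 tTAxAPP mouse on a C57BL/6 background, and each group held 2 males and 2 females aged 18 months. By their labels and the study's methods, the mice labelled placebo (APP 6 → 18mo) were raised on doxycycline (Doxy) chow and received Doxy-free chow from 6 to 18 months of age. Those labelled doxycycline (18mo control) were fed Doxy chow at 200 mg/kg throughout. All 8 mice, controls included, carry a tTA transgene under the Camk2a promoter, which is active in excitatory neurons of the forebrain, and a tetO transgene encoding APP with the Swedish and Indiana mutations. The 7 libraries of 24-month tTAxAPP mice entered the fit for the estimate of spread and are used only for values beside those of 18 months. Of these, 4 (2 males and 2 females) were labelled placebo and received Doxy-free chow from 12 to 24 months of age. The other 3 (2 males and 1 female) were labelled doxycycline and fed Doxy chow at 200 mg/kg throughout.

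In this Tet-Off system, tTA drives the APP transgene when Doxy is absent, and Doxy in the chow keeps it silent. APP is the membrane protein from which amyloid-β is cut by β- and γ-secretase. Amyloid deposits in mouse brain are known for gathering microglia, the resident macrophages, which switch on a program of receptors (Trem2, Clec7a), protease inhibitors (Cst7), lysosomal enzymes and chemokines, and for reactive astrocytes marked by Gfap and Serpina3n.

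App was checked first in each library because it reads out the labels. App (ENSMUSG00000022892; chromosome 16 of mm10, 84949685 to 85173766, minus strand) had 52971, 46594, 54174 and 48721 normalized counts in the libraries labelled placebo, in the order of mice ID172 (male), ID167 (female), ID204 (male) and ID164 (female). It had 117852, 127495, 156113 and 148494 in the libraries labelled doxycycline, in the order of mice ID176 (male), ID196 (female), ID199 (male) and ID205 (female). This order of mice holds wherever library values are listed. The groups did not overlap, and App was lower in every library labelled placebo, the reverse of what the treatment labels state for a Tet-Off transgene. From these counts, an exchange of the 18-month labels and a lower App in mice without Doxy cannot be told apart, so the sign of every value by label holds only if the labels do. The log2 difference, placebo minus doxycycline on the log2(normalized count + 1) scale, was -1.44 (standard error 0.112, adjusted p = 9.42e-06 from limma). At 24 months, App lay between 119118 and 156193 in the 4 libraries labelled placebo and between 51202 and 59496 in the 3 labelled doxycycline. Groups are therefore named below only as the libraries labelled placebo or doxycycline, and each direction is given by label and by App: lower under the placebo label means higher in the libraries with more App. Transgene and mouse App reads are not told apart in these gene counts.

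**Figure D1:**
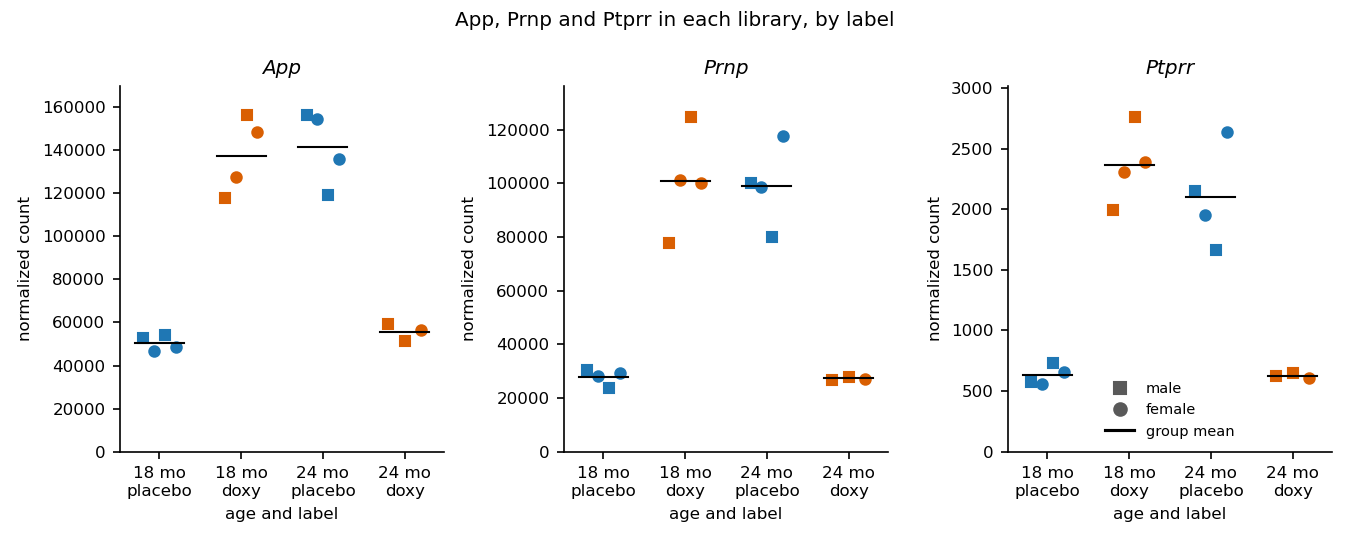
Normalized counts of App, Prnp and Ptprr (y axis, from 0) in each library by age and treatment label (x axis); squares are males, circles are females and bars are group means. At 18 months, all 4 libraries labelled placebo lie below all 4 labelled doxycycline in each gene, and at 24 months the order is the opposite.

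Prnp, which encodes the prion protein, and Ptprr, which encodes a receptor-type tyrosine phosphatase that acts on MAP kinases, had the smallest adjusted p of all genes. Prnp (chromosome 2, 131909928 to 131938429) had 30391, 28187, 23676 and 29291 normalized counts under the placebo label and 77952, 101309, 124777 and 100304 under the doxycycline label. Its log2 difference was -1.84 (standard error 0.131, adjusted p = 3.67e-06 from limma). Ptprr (chromosome 10, 116018213 to 116274932) had 574, 557, 730 and 654 normalized counts under the placebo label and 1996, 2308, 2762 and 2392 under the doxycycline label, a log2 difference of -1.91 (standard error 0.129, adjusted p = 3.66e-06 from limma). Both genes were thus higher in the libraries with more App, without overlap. Within a library, the ratio of the Prnp to the App value was 0.437 to 0.605 under the placebo label and 0.661 to 0.799 under the doxycycline label. Neighbouring genes did not pass the test. Within 500 kb, 0 of 9 neighbours of Prnp, 0 of 8 of Ptprr and 0 of 5 of App passed in limma, with log2 differences from -0.42 (Prokr2) to 0.23 (Adra1d) around Prnp, from -0.73 (Lgr5) to 0.11 (Kcnmb4) around Ptprr and from -0.14 (Cyyr1) to 0.08 (Atp5j) around App. The tetO-APP cassette is built on a prion-gene vector, and its share in the Prnp counts was not tested.

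The libraries labelled placebo held 21944820 to 27894824 reads and those labelled doxycycline 16330400 to 30436850, with 4.20% to 5.22% of reads on mitochondrial genes. The 12 pairs of 18-month libraries with the same label correlated at Pearson r of 0.983 to 0.993 across genes. Markers of brain cells were present as the tissue label requires: Snap25 and Syt1 of neurons had group means of 66020 and 33990 under the placebo label and 61591 and 31702 under the doxycycline label, Mbp of oligodendrocytes 87223 and 95861, and Camk2a, the gene whose promoter drives tTA, 47455 and 40628.

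Genes averaging 10 or more normalized counts over the 15 libraries numbered 16684 of 41388, and 50 of them differed between the groups at a Benjamini-Hochberg adjusted p of 0.05 in limma (0.300% of genes tested). Under the placebo label 47 were lower (0.282%), hence higher with more App, and 3 were higher (0.0180%), hence lower with more App. The called changes were thus one-sided. Over all genes tested the median log2 difference was 0.00, and 49.1% were lower under the placebo label. Normalization between libraries can itself bring such a median near 0. At an unadjusted p under 0.05 in limma, 706 genes were lower under the placebo label and 580 higher. The called differences ranged from 0.51 to 4.34 in size on the log2 scale, and in 30 of the 47 the log2 difference was -1 or beyond. In 46 of the 47, all 4 libraries labelled placebo lay below all 4 labelled doxycycline, an order found in 2.42% of genes tested. In 2 of the 3 genes that were higher, all libraries labelled placebo lay above, an order found in 1.53%. The called genes were chosen on these same libraries, which favours such an order, so nothing is read from these counts. Most of the called genes are known for expression in microglia and other macrophages or in reactive astrocytes. Of the 50, 33 belong to the gene lists below, which were chosen with earlier results of these data known. The share of all genes tested that the lists hold was not counted, so nothing is read from the 33. In bulk tissue, fewer cells of a type and less RNA per cell cannot be told apart. The count depended on single libraries: it was 10, 8, 9 and 20 without mouse ID172, ID167, ID204 or ID164 of the placebo label and 9, 25, 10 and 48 without mouse ID176, ID196, ID199 or ID205 of the doxycycline label. Prnp, Cst7, Ptprr, Gfap, App, Trem2 and Cd14 passed in each of these fits and in all other alternatives tried.

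**Figure D2:**
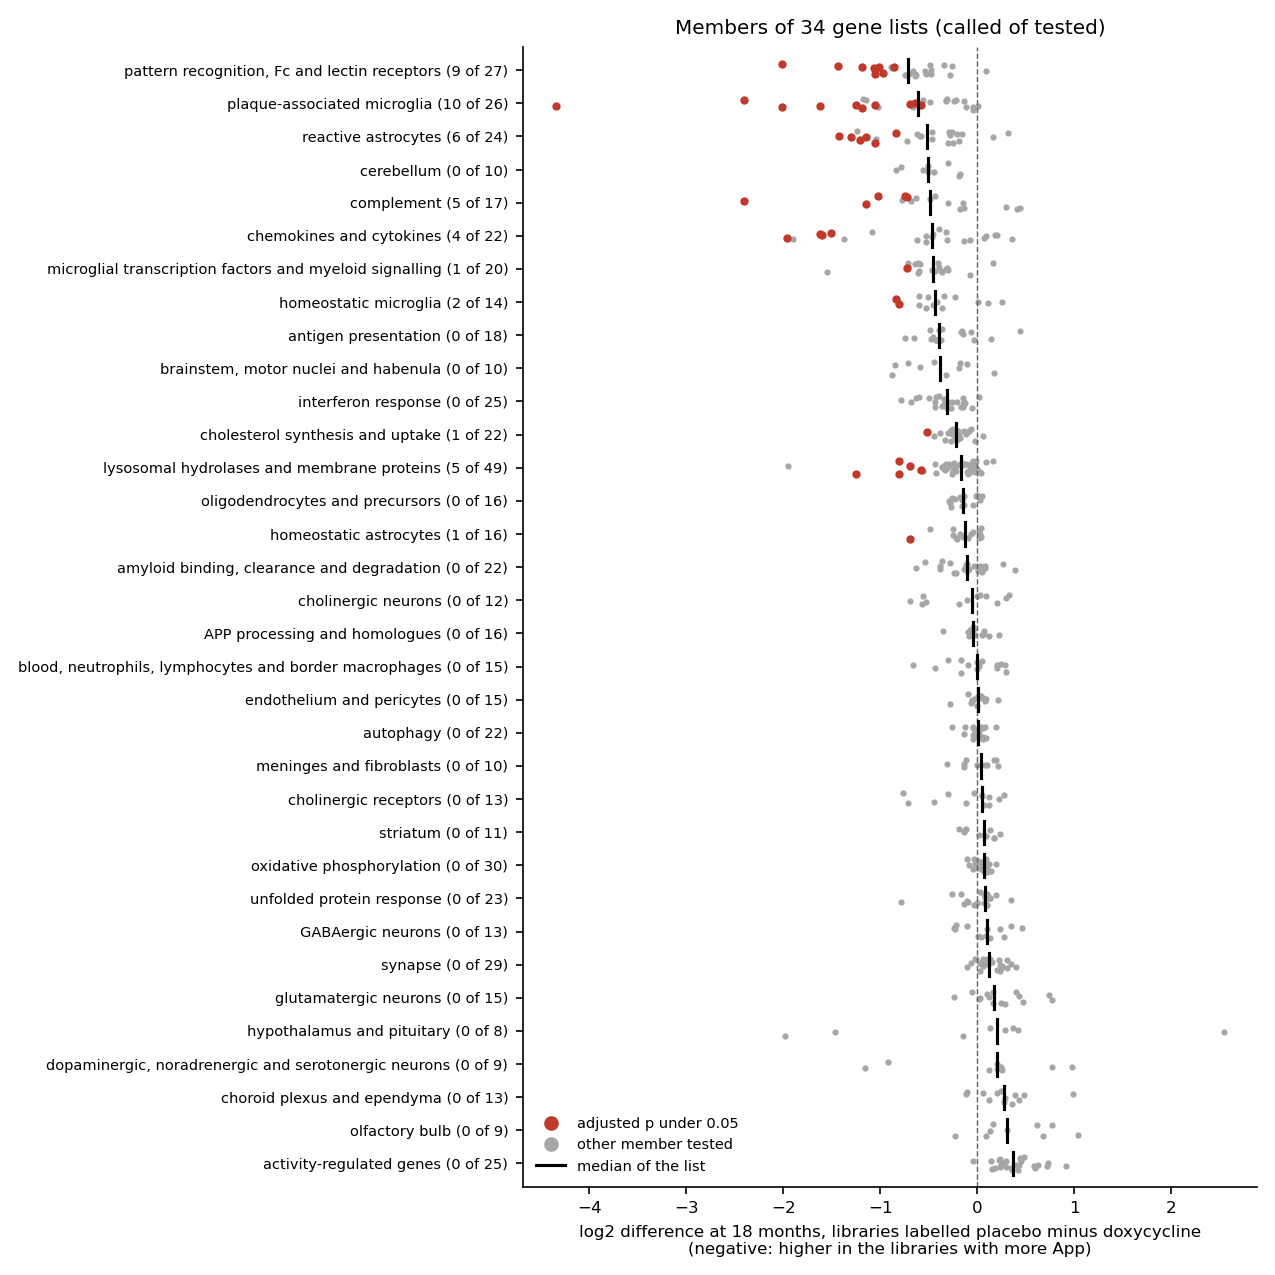
Log2 difference at 18 months (x axis, libraries labelled placebo minus doxycycline, negative values being higher with more App) of each tested member of 34 gene lists (y axis, with members past the threshold of members tested); red points passed an adjusted p of 0.05 in limma, grey points did not, and bars are list medians. Receptor, plaque-associated microglia and reactive astrocyte lists lie to the left with medians of -0.71, -0.61 and -0.52, and activity-regulated genes lie to the right at 0.37.

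Genes that microglia are known to switch on around amyloid plaques included Cst7, the largest change of the 50 called genes. Of 26 members tested, 10 were called lower under the placebo label, and so higher with more App, against 0.282% of all genes tested. No member was called higher, and the median log2 difference was -0.61, against 0.00 over all genes. In 15 of the 26, all libraries labelled placebo lay below, against 2.42% of all genes tested. Cst7 (ENSMUSG00000068129; chromosome 2, 150570415 to 150578944), encoding cystatin F, an inhibitor of lysosomal cysteine proteases, had at most 11.6 normalized counts in the 2 males and 70.3 and 103 in the 2 females under the placebo label and 432, 609, 1117 and 642 under the doxycycline label. The means differed 14.3-fold, and the log2 difference was -4.34 (standard error 0.544, adjusted p = 0.00355 from limma). Both males under the placebo label lay far below its females, yet the lowest library labelled doxycycline still exceeded the highest labelled placebo. Itgax, the integrin chain CD11c, had 24.2, 77.6, 21.2 and 77.7 against values between 166 and 305, a log2 difference of -2.40 (adjusted p = 0.0182). Clec7a, the β-glucan receptor Dectin-1, had 37.8, 74.2, 27.1 and 112 against 185, 262, 271 and 182, a log2 difference of -2.01 (adjusted p = 0.0187). In both genes the groups were separate and the males labelled placebo were lowest. The other called members were Trem2, Cd68, Tyrobp, Ccl6, Ctsd, Ctsz and the tetraspanin gene Cd9. Members that did not pass included Apoe, the main lipid carrier of the brain, with means of 28519 and 31232 (log2 difference -0.13, adjusted p = 0.772), Spp1 (-0.66, adjusted p = 0.558) and Gpnmb (-1.14, adjusted p = 0.403). With 1 library left out, 2 (without ID204 or ID176) to 10 (without ID205) members passed.

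For the microglial genes Cst7, Trem2 and Slamf9, 250-base windows before the RefSeq start (GRCm38.p6) are given to show the upstream sequence. For the lysosomal gene Ctsd, 30 bases around the match are given. These genes are examples from the 36 searched. Slamf9 and Ctsd each hold a match, and called genes with a smaller adjusted p, such as Cd68 and Tyrobp, are not printed. Capitals mark a match, on either strand, to the PU box GAGGAAGT or its core AGGAAGT, which myeloid ETS factors bind, or to TCACGTGA, bound by the TFEB family that controls lysosomal genes. The core was searched after the longer motif had been counted, and each PU box match is also a match of the core. Cst7 spans chr2:150570165-150570414 on the plus strand, Trem2 chr17:48346151-48346400 on the plus strand, Slamf9 chr1:172475110-172475359 on the plus strand, and Ctsd chr7:142387908-142387937 on the minus strand.
Cst7: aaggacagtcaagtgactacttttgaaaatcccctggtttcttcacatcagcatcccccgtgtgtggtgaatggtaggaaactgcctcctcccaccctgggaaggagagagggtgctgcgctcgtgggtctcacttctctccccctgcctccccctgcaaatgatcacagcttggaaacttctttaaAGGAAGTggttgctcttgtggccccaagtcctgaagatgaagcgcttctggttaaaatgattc
Trem2: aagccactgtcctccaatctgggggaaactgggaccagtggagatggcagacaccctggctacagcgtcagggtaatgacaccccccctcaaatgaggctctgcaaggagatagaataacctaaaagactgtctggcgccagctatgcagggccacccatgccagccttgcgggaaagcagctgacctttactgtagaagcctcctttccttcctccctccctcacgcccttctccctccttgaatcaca
Slamf9: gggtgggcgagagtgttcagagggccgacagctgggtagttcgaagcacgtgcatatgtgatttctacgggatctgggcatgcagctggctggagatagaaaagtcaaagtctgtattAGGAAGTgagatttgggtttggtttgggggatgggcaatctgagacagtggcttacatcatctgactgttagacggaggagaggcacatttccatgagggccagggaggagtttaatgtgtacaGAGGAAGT
Ctsd: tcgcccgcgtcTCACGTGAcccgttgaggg
The PU box was in the 250-base window of 2.44% of 32851 RefSeq promoters, and in 2 of the 43 windows of the called genes that were lower under the placebo label (those of B430306N03Rik and Slamf9). Its core was in 7.69% of all windows and in 9 of the 43, the Cst7 window among them. The TCACGTGA motif was in 0.785% of all windows and in 1 of the 43, that of Ctsd. The Trem2 window held none of these letters. The 43 windows belong to 36 of the 47 genes. A match is a description of letters, not of a bound site.

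Surface receptors of innate immunity had the lowest median of the 34 lists. Of 27 pattern recognition, Fc and lectin receptors tested, 9 were called lower under the placebo label and higher with more App, against 0.282% of all genes tested. No receptor was called higher, and 26 had a negative difference, with a median of -0.71. All libraries labelled placebo lay below in 19 of the 27, against 2.42% of all genes tested. Trem2 (chromosome 17, 48346401 to 48354147), a lipid-sensing receptor of microglia, had 488, 708, 391 and 654 normalized counts against 936, 1359, 1619 and 1152 (log2 difference -1.19, standard error 0.168, adjusted p = 0.00881 from limma). Its signalling adaptor Tyrobp had 488, 743, 413 and 703 against 950, 1351, 1471 and 1039 (-1.05, adjusted p = 0.0161). Receptor and adaptor thus gave the same order of libraries within the placebo label, with mouse ID204 lowest and mouse ID167 highest. Cd14, a co-receptor for bacterial lipopolysaccharide, had 52.3, 76.7, 62.7 and 91.3 against 127, 165, 158 and 133 (-1.06, adjusted p = 0.00881). Cd180 and Ly86, whose products form a receptor complex related to Toll-like receptors, differed by -1.44 and -0.97 (adjusted p = 0.0262 and 0.0291). Tlr13, a sensor of bacterial ribosomal RNA, Slamf9 and the inhibitory Fc receptor gene Fcgr2b differed by -1.01, -1.06 and -0.86 (adjusted p = 0.0248, 0.0341 and 0.0431). Tlr2, with means of 70.3 and 129, did not pass in limma (-0.88, adjusted p = 0.139) and did in DESeq2 (adjusted p = 0.0168). Mertk, a receptor for dying cells, had means of 1095 and 1026 (0.10, adjusted p = 0.772). With 1 library left out, 2 (without ID172, ID167, ID204 or ID176) to 8 receptors passed, and DESeq2 called 14.

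**Figure D3:**
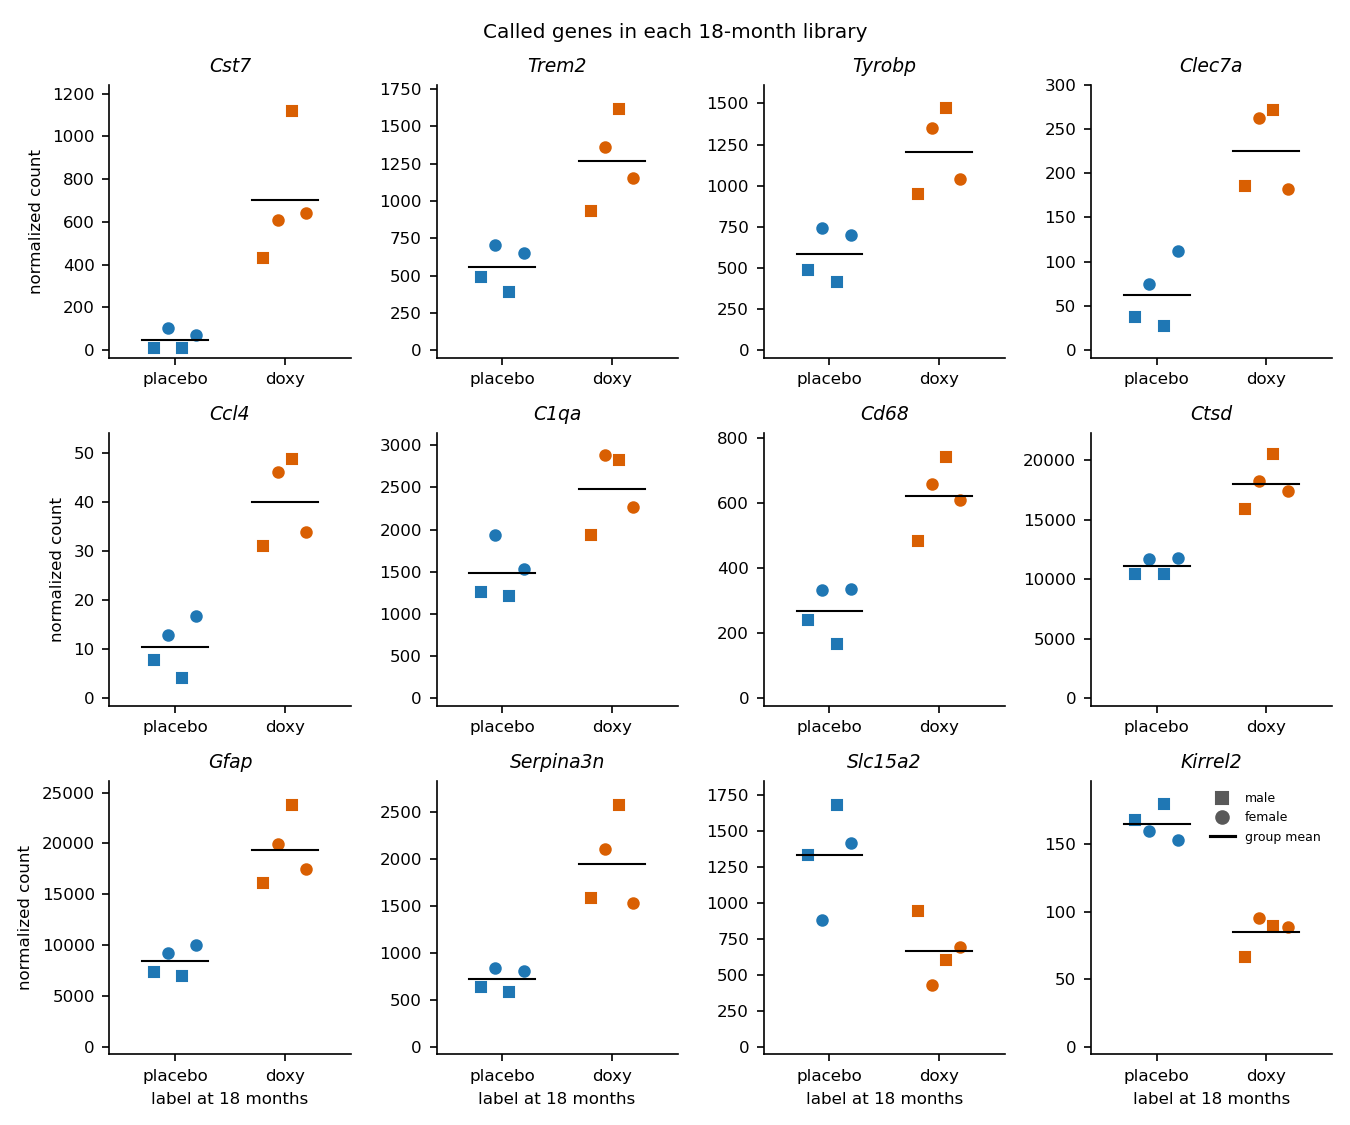
Normalized counts (y axis, linear from 0) of 12 genes past the threshold in each 18-month library by label (x axis); squares are males, circles are females and bars are group means. In 10 of the genes the placebo label has the lower mean, and Slc15a2 and Kirrel2 show the opposite order; the groups overlap in C1qa and Slc15a2.

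Of 17 complement genes tested, 5 were called lower under the placebo label and higher with more App, against 0.282% of all genes tested. No member was called higher, and the median was -0.49. In 7 of the 17 all libraries labelled placebo lay below, against 2.42% of all genes tested. The 5 called were C1qa and C1qb, chains of the initiator C1q, the C4 gene C4b, the anaphylatoxin receptor gene C3ar1 and Itgax, a chain of complement receptor 4. C1qa had 1254, 1939, 1216 and 1536 normalized counts against 1931, 2885, 2822 and 2265 (log2 difference -0.74, adjusted p = 0.0291 from limma). The lowest library labelled doxycycline was just under the highest labelled placebo, so these groups overlapped (two-sided exact permutation test, p = 0.0571). C4b had 1781, 2371, 1314 and 2365 against 3068, 4986, 5675 and 3687 (-1.15, adjusted p = 0.0307), and its reads may be shared with the near-identical gene C4a. The central component C3 had means of 117 and 132 (-0.15, adjusted p = 0.932), and C1ra and C1s1, proteases of the C1 complex, had 58.1 and 43.6 and 56.5 and 39.5 (0.41 and 0.44, adjusted p = 0.711 and 0.719). These 5 calls became 0 without ID172, ID167, ID204, ID176 or ID199, 1 without ID164 or ID196, 7 without ID205 and 0 without the sex covariate.

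Among chemokines and cytokines, 4 of 22 tested were called lower under the placebo label, against 0.282% of all genes tested. All of these are signals to leukocytes. No member was called higher, and the median was -0.46. All libraries labelled placebo lay below in 5 of the 22 and above in 1, against 2.42% and 1.53% of all genes tested. Ccl4 rested on few reads, with 7.75, 12.9, 4.24 and 16.8 normalized counts against 31.1, 46.2, 48.9 and 33.9 (-1.97, standard error 0.299, adjusted p = 0.0141). Cxcl5, which attracts neutrophils, had 16.5, 25.9, 19.5 and 29.4 against 42.5, 70.5, 77.8 and 76.9 (-1.51, adjusted p = 0.0148). Ccl6 had 64.0, 114, 40.7 and 93.4 against 185, 183, 322 and 235 (-1.62, adjusted p = 0.0182), and Tnfsf8, the ligand of CD30, had means of 7.77 and 23.2 (-1.60, adjusted p = 0.0291). The groups were separate in all 4 genes, and all 4 were higher with more App. Ccl3 had means of 24.1 and 86.1 (-1.90), with an adjusted p of 0.0667 in limma and 0.000184 in DESeq2, which called it. The cytokines named for inflammation in most assays were barely read in whole hemispheres: Il1b had group means of 6.04 and 11.8, Tnf of 3.02 and 4.57 and Il6 of 1.87 and 3.47 normalized counts, under the limit for testing, and Ifng had 0 reads in all 8 libraries. Ccl2 had means of under 8 normalized counts (-0.13, adjusted p = 0.952). The 4 calls became 0 without ID199 and 1 without ID172, ID167, ID204 or ID176.

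Lysosomal genes changed in part. Of 49 hydrolases and membrane proteins tested, 5 were called lower under the placebo label and higher with more App, against 0.282% of all genes tested. No member was called higher. A negative difference was found in 44, with a median of -0.17. In 17 all libraries labelled placebo lay below, against 2.42% of all genes tested. Ctsd, encoding the aspartic protease cathepsin D, had 10477, 11722, 10434 and 11772 normalized counts against 15924, 18217, 20540 and 17438 (-0.70, standard error 0.124, adjusted p = 0.0291). Cd68, a membrane glycoprotein of phagocyte lysosomes, had 239, 331, 166 and 334 against 483, 657, 740 and 607 (-1.25, adjusted p = 0.0141). Ctss and Ctsz, the other called cathepsin genes, differed by -0.81 and -0.58 (adjusted p = 0.0359 in each). Members that did not pass included Psap, a sphingolipid activator precursor, with means of 40861 and 41696 (-0.03, adjusted p = 0.929), and Lamp1 (-0.17, adjusted p = 0.483). Autophagy genes did not pass in limma or DESeq2 (0 of 22, median 0.01). Sqstm1, the cargo adaptor p62, had means of 10805 and 10545 (adjusted p = 0.917) and Map1lc3b, an LC3 gene, 3758 and 3548 (adjusted p = 0.762). Of the unfolded protein response, 0 of 23 members passed in limma, with a median of 0.08, and DESeq2 called 1, Derl1 (adjusted p = 0.0419), a component of protein export from the endoplasmic reticulum. The 5 lysosomal calls became 0 to 2 without any 1 library except ID205, and 12 in DESeq2.

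Markers of resting microglia and the factors behind them had medians nearer 0 than the plaque-associated genes. Of 14 homeostatic markers, 2 passed, both lower under the placebo label and higher with more App, against 0.282% of all genes tested. Fcrls, an Fc receptor-like gene, was among them, and the list median was -0.43. All libraries labelled placebo lay below in 8 of the 14, beside 15 of 26 plaque-associated genes and 2.42% of all genes tested. In the 20 myeloid genes below, that order held in 4. The purinergic receptor gene P2ry12 had means of 777 and 986 (-0.34, adjusted p = 0.472), the fractalkine receptor gene Cx3cr1 1144 and 1733 (-0.60, adjusted p = 0.151 in limma and 0.013 in DESeq2, which called it) and Tmem119 522 and 520 (0.01, adjusted p = 0.983). Fcrls had 544, 656, 437 and 671 normalized counts against 718, 1153, 1141 and 1132 (-0.84, adjusted p = 0.0434). Summed over the 14 genes, the libraries ranged from 9826 to 10557 under the placebo label and from 12871 to 15974 under the doxycycline label, without overlap. Of 20 myeloid transcription factors and signalling genes, 1 passed, Irf5, a factor downstream of Toll-like receptors (means 99.7 and 165, -0.72, adjusted p = 0.0291), and 19 had a negative difference, with a median of -0.45. Spi1, encoding PU.1, the factor that specifies microglia, had means of 60.4 and 93.6 (-0.60, adjusted p = 0.235). Interferon-response genes had 24 of 25 negative differences, a median of -0.31 and 0 members past the threshold (smallest adjusted p = 0.327, Oas1a), and antigen presentation 0 of 18 (smallest adjusted p = 0.261, B2m). At an unadjusted p under 0.05, 7 of the 25 and 6 of the 18 would be counted, against 7.71% of all genes tested. DESeq2 called 0 members of both lists, 5 of the homeostatic markers and 6 of the myeloid factors. The 2 homeostatic calls became 1 without ID196 or ID205 and 0 without any other library, and the call of Irf5 was lost without any except ID172 or ID205.

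The list of blood and brain border cell genes gave no such shift. Other genes used by leukocytes, such as Tnfsf8 and Pdcd1, are not in this list and were called lower under the placebo label. Of 15 tested genes of neutrophils, lymphocytes, red cells and border macrophages, 0 passed, with a median of 0.00. Border macrophage markers Mrc1, Cd163 and Lyve1 had means of 92.5 and 93.2, 62.7 and 61.1, and 20.9 and 20.4. The summed list ranged from 3437 to 6213 under the placebo label and from 2806 to 4901 under the doxycycline label. Endothelial and pericyte genes (0 of 15 called, median 0.01) and meningeal genes (0 of 10, median 0.04) lay near the value of all genes.

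Reactive astrocyte genes gave 6 called of 24 tested, all lower under the placebo label and higher with more App, with a median of -0.52. Of all genes tested, 0.282% were called lower. In 12 of the 24 all libraries labelled placebo lay below, against 2.42% of all genes tested. Gfap (chromosome 11, 102887336 to 102900912), the intermediate filament of astrocytes, had 7385, 9253, 6905 and 10008 normalized counts against 16131, 19960, 23815 and 17486 (-1.21, standard error 0.155, adjusted p = 0.00379). Serpina3n, a secreted protease inhibitor, had 639, 842, 585 and 804 against 1583, 2103, 2573 and 1529 (-1.42, adjusted p = 0.0182). Osmr, the oncostatin M receptor, had 128, 162, 156 and 146 against 319, 296, 550 and 343 (-1.30, adjusted p = 0.0205). None of these groups overlapped. Aspg, C4b and Cd14, the last also a microglial gene, were the other called members. Vim (-0.46, adjusted p = 0.479) and Lcn2 (means 11.1 and 23.9, adjusted p = 0.639), both used as gliosis markers, did not pass. Among 16 genes of resting astrocytes only the urea transporter gene Slc14a1 passed, with 347, 446, 450 and 520 against 647, 764, 755 and 671 (-0.70, adjusted p = 0.0141), and the list median was -0.12. Aqp4 had means of 4352 and 6125 (-0.49, adjusted p = 0.356), and the glutamate transporter gene Slc1a2 had 47018 and 45632. The 6 reactive astrocyte calls became 2 without ID172, ID167, ID204, ID164, ID176 or ID199, and 9 in DESeq2.

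In cholesterol synthesis and uptake, 21 of 22 genes had a negative difference, with a median of -0.22, and 1 passed. This was Stard4, which moves sterol between membranes, with 1278, 1056, 1252 and 1064 normalized counts against 1772, 1472, 1825 and 1573 (-0.51, standard error 0.083, adjusted p = 0.0182). It was the smallest of the called changes, yet the groups were separate, and Stard4 was higher with more App. The regulator gene Srebf2 had means of 3894 and 3984 (-0.02, adjusted p = 0.976). The call of Stard4 was lost without any 1 library except ID196 or ID205.

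A further 11 genes that were lower under the placebo label, apart from App, Prnp and Ptprr, were in no list. Mpeg1, the macrophage pore-forming protein perforin-2, had 903, 921, 852 and 1057 normalized counts against 1745, 2000, 2395 and 1807 (-1.08, adjusted p = 0.0291). Plek, a protein kinase C substrate of blood cells and microglia, had 536, 556, 513 and 572 against 839, 887, 1159 and 909 (-0.79, adjusted p = 0.0205). Pdcd1, the immune checkpoint receptor PD-1, was low, with 9.69, 12.1, 4.24 and 17.8 against 29.7, 43.9, 41.6 and 29.8 (-1.76, adjusted p = 0.0291). The groups were separate in each. The remaining members were the peptide transporter gene Slc15a3 (-1.28), Treml2 (-1.72) and B430306N03Rik (-1.48), which lie near Trem2 on chromosome 17, Lgals3bp (-0.77), Flnc, a filamin (-0.89), Milr1 (-1.30), Trpm1, a cation channel gene (-1.78) and Asb10 (-2.12), with adjusted p from limma between 0.0307 and 0.0400. Asb10 and Trpm1 had group means of 5.64 and 28.4 and of 5.17 and 19.6, so they rest on few reads.

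The 3 genes that were higher under the placebo label, and lower with more App, do not belong to the glial lists. Slc15a2, the proton-coupled peptide transporter PEPT2, had 1335, 881, 1680 and 1418 normalized counts against 943, 430, 603 and 694 (1.01, standard error 0.190, adjusted p = 0.0356). Female ID167 of the placebo label lay below male ID176 of the doxycycline label, so the groups overlapped (two-sided exact permutation test, p = 0.0571). Kirrel2, a nephrin-related adhesion molecule, had 168, 160, 180 and 153 against 66.5, 95.5, 89.6 and 88.5 (0.96, adjusted p = 0.0397). It lies on chromosome 7 (30447534 to 30457690), within 500 kb of Tyrobp, which moved the other way, and of Nphs1 (0.61), the highest of its 46 tested neighbours. A830036E02Rik had 2308, 2417, 2069 and 2310 against 1437, 1217, 1705 and 1483 (0.65, adjusted p = 0.0341). It overlaps Krt12 on the opposite strand (means 197 and 145, log2 difference 0.38), and because use of strand in counting is not given in the sources used here, reads of this pair cannot be told apart. The call of Kirrel2 was lost without any 1 of the 8 libraries, that of Slc15a2 without any except ID205 and that of A830036E02Rik without any except ID199.

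In the lists of APP processing and of amyloid clearance, 0 genes passed in limma or DESeq2, while App itself differed 2.72-fold between the means. Cd14, which passed and is also known for amyloid uptake, stands in the receptor list. Of 16 genes of APP processing and APP homologues, 0 passed, with a median of -0.04. The α-secretase gene Adam10 had means of 2310 and 2400 (-0.06, adjusted p = 0.870) and the β-secretase gene Bace1 2570 and 2696 (-0.07, adjusted p = 0.849). Of 22 genes of amyloid binding, clearance and degradation, 0 passed, with a median of -0.10. Ide, an amyloid-degrading protease, had means of 2784 and 2267 (0.27, adjusted p = 0.717), Mme, encoding neprilysin, 229 and 282 (-0.38, adjusted p = 0.722), and the chaperone gene Clu 16851 and 19816 (-0.23, adjusted p = 0.315), the smallest p of the list.

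No neuronal gene of the lists passed in limma. Synaptic genes had 25 of 29 positive differences with a median of 0.12, and glutamatergic genes 13 of 15 with 0.17. GABAergic genes had 9 of 13 with 0.10. Most thus lay slightly higher under the placebo label and lower with more App, against 8486 of all 16684 genes tested. Such a lean was not particular to neuronal lists, as oxidative phosphorylation had 25 of 30 positive differences. Oligodendrocyte genes leaned the other way, with 14 of 16 negative. Activity-regulated genes, the immediate early genes that neuronal firing induces, had 24 of 25 positive differences with a median of 0.37. In 4 of the 25 all libraries labelled placebo lay above, against 1.53% of all genes tested. Egr1 had means of 3955 and 2555 (0.73, adjusted p = 0.498), Arc 2292 and 1510 (0.91, adjusted p = 0.639) and Dusp14, the smallest p of the list, 1177 and 890 (0.40, adjusted p = 0.183 in limma and 0.024 in DESeq2, which called it). Summed over the list, the libraries labelled placebo had 29942, 26658, 28832 and 25712 and those labelled doxycycline 16339, 21726, 19121 and 27444. Female ID205 of the doxycycline label lay within the range of the placebo label and the other 3 lay below it. By label the sign of this list was the opposite of that of the glial lists at 18 months, and at 24 months its median was -0.65. App runs with the labels at 24 months, so by App level both medians of this list are lower with more App.

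Of 12 genes of cholinergic neurons, 0 passed in limma, with a median of -0.05. Slc5a7, the choline transporter, had 300 and 495 as group means (-0.69, adjusted p = 0.133 from limma and 0.00747 from DESeq2), and Chat, choline acetyltransferase, had 140 and 203 (-0.57, adjusted p = 0.420 from limma and 0.258 from DESeq2), both lower under the placebo label and higher with more App. Slc18a3, the vesicular acetylcholine transporter, lies inside Chat and had means of 62.5 and 86.0 (-0.52, adjusted p = 0.732). Basal forebrain markers Ngfr and Gbx1 had positive values of 0.30 and 0.33 (adjusted p = 0.815 and 0.824). Cholinergic neurons also occupy the brainstem, and regional markers varied between hemispheres: the brainstem list summed to 880, 1389, 2359 and 769 under the placebo label and to 3358, 1023, 1951 and 1531 under the doxycycline label (0 of 10 called, 9 negative, median -0.38). The cerebellum list summed to 25365 to 51463 and to 34872 to 54675 (0 of 10 called, 10 negative, median -0.51), and choroid plexus to 9198 to 39331 and to 6884 to 18080 (0 of 13 called, median 0.28). The part of this regional variation in the values of neuronal genes was not tested.

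**Figure D4:**
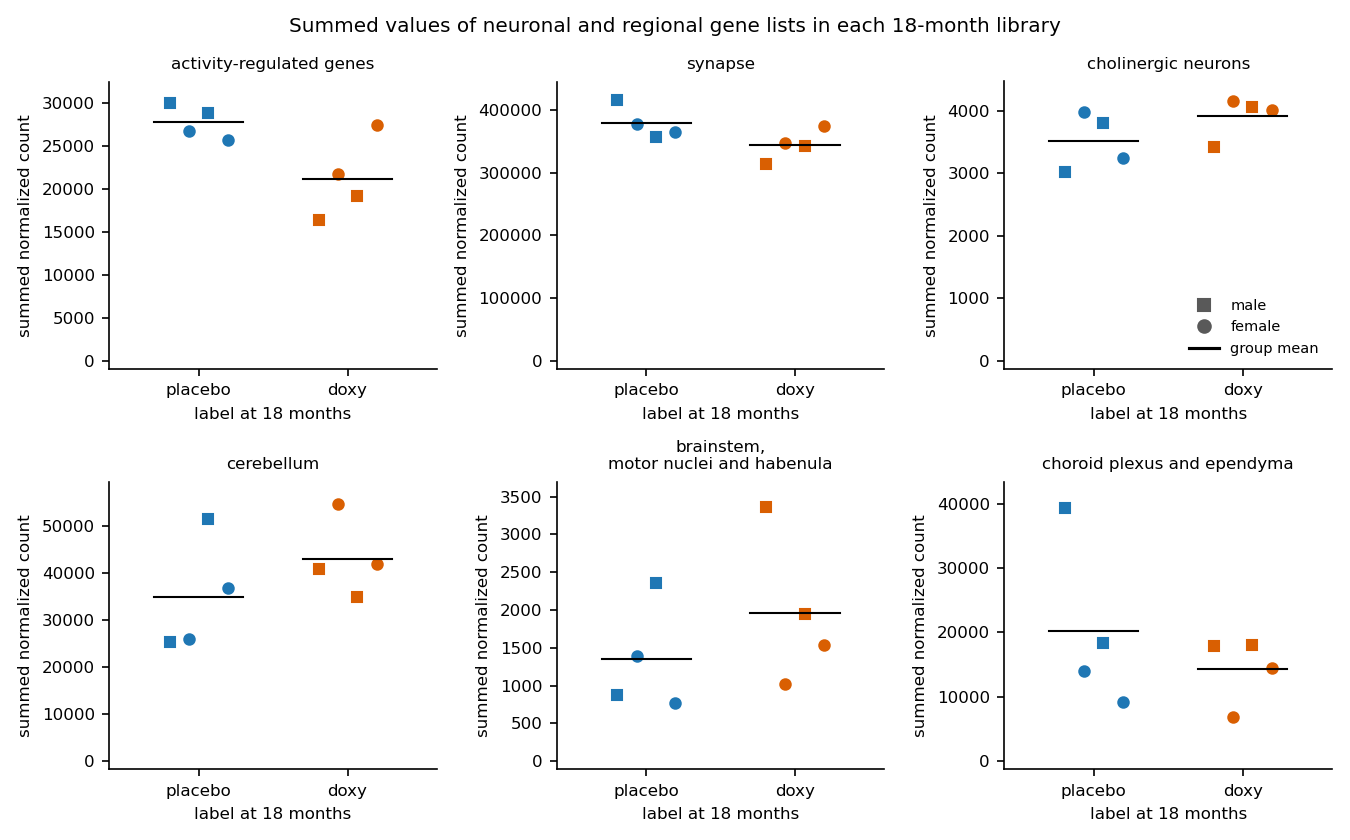
Summed normalized counts (y axis, from 0) of 6 neuronal and regional gene lists in each 18-month library by label (x axis); squares are males, circles are females and bars are group means. The activity-regulated sum is higher in 4 libraries labelled placebo than in 3 of those labelled doxycycline, and the brainstem and choroid plexus sums spread widely within each label.

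Other lists held no called member in limma or DESeq2. Oligodendrocyte genes had a median of -0.15 (0 of 16), oxidative phosphorylation 0.07 (0 of 30), striatal genes 0.07 (0 of 11), cholinergic receptors 0.05 (0 of 13), dopaminergic, noradrenergic and serotonergic genes 0.21 (0 of 9), olfactory bulb genes 0.31 (0 of 9), and hypothalamic and pituitary genes 0.21 (0 of 8).

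Both sexes moved in the same direction in all 50 genes, but these were called on males and females together. The groups did not overlap in 46 of the 47 lower and 2 of the 3 higher genes. That order fixes the same sign in each sex, so nothing is read from the agreement. The median log2 difference of the 47 genes that were lower under the placebo label was -0.88 in females and -1.39 in males, and in 43 of the 47 the male value was the lower, against 48.1% of all genes tested. The difference between the sexes passed the threshold in 0 of 16684 genes in limma (0%), with 863 at an unadjusted p under 0.05, and in 0 in edgeR, with 917. With 2 mice of each sex and label, males and females are described here by their order. Leaving out App, Prnp and Ptprr, in 37 of the 44 genes both females of the placebo label lay above both its males, an order found in 19.5% of all genes tested. Under the doxycycline label that order held in 2 of the 44, against 21.2% of all genes. Within labels, male ID204 was the lowest library of the placebo label in 32 of the 44 genes and male ID199 the highest of the doxycycline label in 34, against 33.6% and 19.9% of all genes. Male ID199 also had the highest App, Prnp and Ptprr of its label.

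The same label contrast at 24 months, in libraries that share no sample with the 18-month ones, had the opposite sign in nearly all of these genes. All 47 genes that were lower under the placebo label at 18 months were higher under it at 24 months, where 50.5% of genes tested had a positive difference, so they were higher with more App at both ages. Their median log2 difference at 24 months was 0.75, against -1.15 at 18 months. The 47 were chosen on their 18-month values, which favours larger sizes at that age, so nothing is read from the smaller size. At 24 months 4 genes passed (0.0240%), App, Prnp, Ptprr and Trem2, and Trem2 differed there by 1.23 (adjusted p = 0.0262 from limma). The doxycycline label had only 3 libraries at that age, the shallowest with 7903241 reads. This count is therefore not compared with that at 18 months. The difference between the ages passed in 47 of the 50, against 0.719% of all genes tested, but the 50 were chosen on the 18-month values that enter it, so nothing is read from that count. Kirrel2 and A830036E02Rik had values of -0.24 and -0.05 at 24 months (adjusted p = 0.908 and 0.983), and Slc15a2 had 0.34 (adjusted p = 0.832), the 1 gene with the same label sign at both ages.

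**Figure D5:**
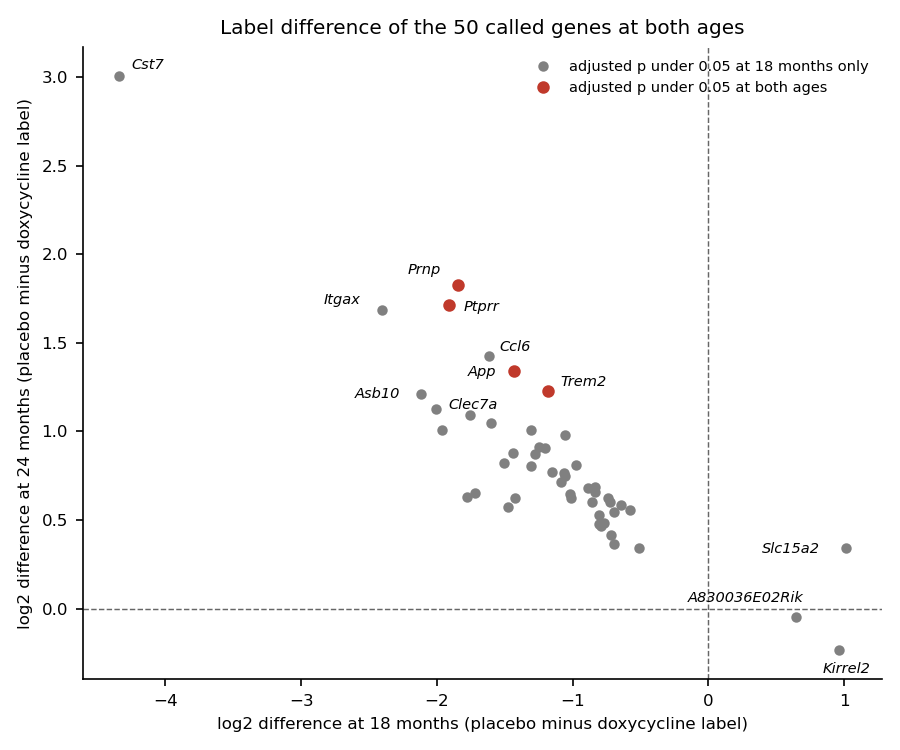
Log2 difference (libraries labelled placebo minus doxycycline) of the 50 called genes at 18 months (x axis) and at 24 months (y axis); red points passed an adjusted p of 0.05 in limma at both ages. The 47 genes that are negative at 18 months are positive at 24 months, App among them, and Slc15a2 is positive at both.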

How the data were processed

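RNA of frozen hemispheres was sequenced by the authors as single-end reads, aligned to mm10 with STAR (version 2.4.0 in the submitters' processing notes) and counted per gene with featureCounts. The values the authors deposited are a normalized signal per gene, called normalized counts here. Division by the smallest value above 0 of each library gave whole reads for 100% of values (tolerance 0.001), on 41388 genes, of which 40340 (97.5%) matched a GENCODE symbol. For the 16684 genes averaging 10 or more over all libraries, log2(value + 1) was fitted with limma 3.58.1 (R 4.3.3) with an intensity trend, 4 group means and sex, two-sided and Benjamini-Hochberg adjusted at 0.05. On the recovered reads, edgeR 4.0.16 called 50 genes and DESeq2 1.42.0 called 124. Exact permutation tests used 4 against 4 libraries, with a smallest p of 0.0286. Methods were tested on simulated data. That each label group held separate mice comes from the labels.

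The contrast and the gene lists were chosen with earlier results of these data known. Genes named were App, Prnp and Ptprr, called genes by list and by adjusted p, called genes in no list, the member with the smallest p of a list with no call, and genes that the study also assayed by other methods. A few members that did not pass were named after their values were seen, as examples. Lists are described by counts and medians, with no set test, and a gene may stand in several lists. Of 28 plaque-associated genes listed, 26 were matched. Alternatives were other pseudocounts, filters, normalizations, weights and samples, and each library left out in turn. Promoter windows came from RefSeq. The protein sequence of App was not used here. Some members counted in the lists are not reported here by name.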

Additional observations from a re-analysis of the deposited data

Results flagged for a closer look

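Fcrls had 718 normalized counts in the library of male ID176 labelled doxycycline, against 1132 to 1153 in the other 3 of that label, and it stood apart from them by more than the limit for a single outlying sample of 4. This was 1 of 100 groups of 4 libraries checked over the called genes, and chance alone sets apart about 1 in 20 groups. The same library had the fewest reads of the 8, 16330400.

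The label contrast differed between the ages. For App, the log2 difference at 24 months minus that at 18 months was 2.77 (adjusted p = 2.09e-07 from limma), and the difference between the ages passed the threshold in 47 of the 50 genes called at 18 months and in 0.719% of all genes tested. The 50 were chosen on the 18-month values that enter this difference. App runs against the labels at 18 months and with them at 24 months, so by App level these genes had the same direction at both ages.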

How the results depend on the processing

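The 50 calls became 31 with no filter on low values, 18 without the sex covariate, 124 in DESeq2 (111 lower and 13 higher under the placebo label) and 76 with array weights. All 50 passed in DESeq2 and 49 in edgeR. Without 1 library each, the count was 8 to 48: 10, 8, 9 and 20 without mouse ID172, ID167, ID204 or ID164 of the placebo label, and 9, 25, 10 and 48 without mouse ID176, ID196, ID199 or ID205 of the doxycycline label, where an arm of 3 also lowers the power. The cause of the other changes was not tested. App stayed past the threshold in every alternative, and no called gene changed sign in any. Among genes near 0, Tmem119 (0.01) became -0.001 in edgeR, -0.003 in DESeq2, -0.018 with array weights, and -0.072 to 0.151 without 1 library each, below 0 without ID167, ID176, ID196 or ID205. Sqstm1 (0.03) became -0.011 with quantile normalization and -0.006 (without ID172) to 0.079 without 1 library each. The 0 calls for the difference between sexes stayed 0 in all 3 alternatives tried. Genes with few reads, such as Ccl4, Tnfsf8, Pdcd1, Asb10 and Trpm1, are limited by depth. No paired analysis was possible because the labels give mouse IDs that no groups share.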

Other observations

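DESeq2 on the recovered reads called 74 genes that limma did not, 64 lower and 10 higher under the placebo label, and all 74 had an unadjusted p under 0.05 in limma. This list was seen before the genes named here were chosen. Among the 64 were the leukocyte genes Ptprc (CD45; log2 difference -0.81, DESeq2 adjusted p = 0.0111) and Ptpn6 (-0.82, 0.00756), the checkpoint gene Lag3 (-0.83, 0.00756), the hydroxycarboxylic acid receptor gene Hcar2 (-2.19, 0.00725) and the divalent metal transporter gene Slc11a1 (-0.90, 0.00141), all higher in the libraries with more App. Among the 10 that were lower with more App were Cttnbp2, a cortactin-binding protein of synapses (0.30, 0.00252), Adam33 (0.79, 0.00259) and Cckbr, the cholecystokinin B receptor (0.47, 0.00747).

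Prl, the pituitary hormone prolactin, had 323 normalized counts in female ID164 of the placebo label and between 0 and 11.2 in the other 7 libraries (limma adjusted p = 0.707).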
